A study of Mus musculus with 30 samples.

Results

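Brain-derived neurotrophic factor (Bdnf), neurotrophin-3 (Ntf3), their receptor tyrosine kinases TrkB (Ntrk2) and TrkC (Ntrk3), and the p75 neurotrophin receptor (Ngfr) were followed in the newborn female mouse hypothalamus after an injection of estrogen. All probe sets that carried 1 of these 5 gene symbols in the platform's annotation were taken, whatever their values, which gave 21 probe sets of the 45037 on the array. They covered 4 of the 5 genes, among 18193 genes named by a single symbol, with 2 probe sets for Bdnf, 8 for Ntrk2, 8 for Ntrk3 and 3 for Ngfr. No probe set carried the symbol Ntf3 in the annotation used, so neurotrophin-3 was not analysed here. C57BL/6J females received, on the day they were born, a subcutaneous injection of 7.5 μg estradiol benzoate (EB, an ester that releases estradiol) in 20 μl of peanut oil, or the oil alone. The whole hypothalamus of single mice was taken at 1, 3, 6, 12 or 24 h, with 3 mice and 3 arrays in each of the 10 groups. All 30 mice were kept under 14 h of light and 10 h of dark. The comparison of EB with oil at each time asks which genes an estrogen of the kind that masculinizes the rodent brain changes in the female, and within what delay. The sources do not say which mice shared a litter, so p-values measure the spread between these mice.

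Neurotrophins are secreted as precursors and cleaved to dimers that keep neurons alive, guide their processes and shape synapses. Mature Bdnf binds TrkB, neurotrophin-3 binds mainly TrkC, and both bind p75, a receptor of the tumour necrosis factor receptor family without a kinase, which also takes up the precursors. Ntrk2 and Ntrk3 make full-length receptors and truncated ones that lack the kinase, and Bdnf is transcribed from several alternative first exons, some of them under the control of neuronal activity. In the hypothalamus Bdnf and TrkB are known for their part in the control of feeding.

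Depth on an array is signal, and the number of arrays limits the precision. The deposited signals differed in brightness between arrays, with the 12 h arrays brightest, so all were brought to a common median of 41.3 with factors from 0.617 to 1.47. The 27022 probe sets above the lowest 40% by mean log2 signal were tested with limma over all 30 arrays. Of 14 listed hypothalamic genes 13 were matched to a probe set and 12 were above the filter. The estrogen-induced progesterone receptor gene Pgr was higher with EB over the 5 times by 0.43 on the log2 scale (standard error, SE, 0.06, limma adjusted p = 0.003). At single times Pgr was higher by 0.28 to 0.71 and passed at none, with limma adjusted p from 0.06 to 0.73. Greb1, another estrogen-induced gene, gave 0.36 over the 5 times (SE 0.10, limma adjusted p = 0.17) and passed at no single time either. Of the 21 neurotrophin probe sets 15 were tested, both of Bdnf, 6 of 8 of Ntrk2, 6 of 8 of Ntrk3 and 1 of 3 of Ngfr. The other 6 had mean scaled signals from 1.67 to 14.4 and were left out of the tests. A signal of one probe set cannot be set against that of another, because each has its own probes, so levels are compared only within a probe set.

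No neurotrophin or neurotrophin receptor probe set passed the test of EB against oil at any time. At 1 h 0 of 15 were called by limma, with 0.0037% of all probe sets called, and at 3 h 0 of 15, with 0.474%. At 6 h and 12 h 0 of 15 were called, with 0% of all probe sets, and at 24 h 0 of 15, with 2.78%. At an unadjusted p under 0.05 there was 1 probe set of 15 at each time by limma, which makes 5 of the 75 comparisons. That is 6.67% of the members at each time, where 8.63%, 12.8%, 6.01%, 6.56% and 15.7% of all probe sets had such a p from 1 h to 24 h. Averaged over the 5 times 0 of 15 were called, with 0.074% of all probe sets, and 1 had an unadjusted p under 0.05, as did 8.67% of all. An EB effect that differed between times was called for 0 of 15, with 0.958% of all probe sets, and 0 of 15 had an unadjusted p under 0.05, where 16% of all did. The 2-factor F that the study's methods name, computed on the deposited signals, called 0 of 15 for treatment and 0 of 15 for the interaction, with 0 and 1 at an unadjusted p under 0.05. The share of all probe sets called by that F was not counted. In the order of the 5 times, the lowest adjusted p of any of the 15 by limma was 0.49, 0.33, 0.83, 0.74 and 0.22.

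The median difference of the 15 probe sets, EB minus oil, was 0.01, 0.10, 0.02, 0.08 and 0.03 on the log2 scale from the first time to the last. Over all probe sets tested it was 0.02, 0.05, 0.02, -0.01 and -0.01. Groups did not overlap for 2 of the 15 at 1 h, both higher with EB, read against 17.6% of all probe sets, and for 1 higher and 1 lower at 3 h, read against 14%. At 6 h it was 2 higher and 1 lower against 9.98%, at 12 h 1 higher against 11.3%, and at 24 h 1 higher and 2 lower against 24.2%. The intervals set what size of effect these data can leave unseen. Averaged over the 5 times, the 95% intervals of all 15 probe sets lay between 0.791-fold and 1.30-fold. At single times 73 of 75 intervals lay within 2-fold either way and 59 within 1.5-fold, and the 2 wider ones were both of Ngfr, at 1 h and 24 h.

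**Figure D1:**
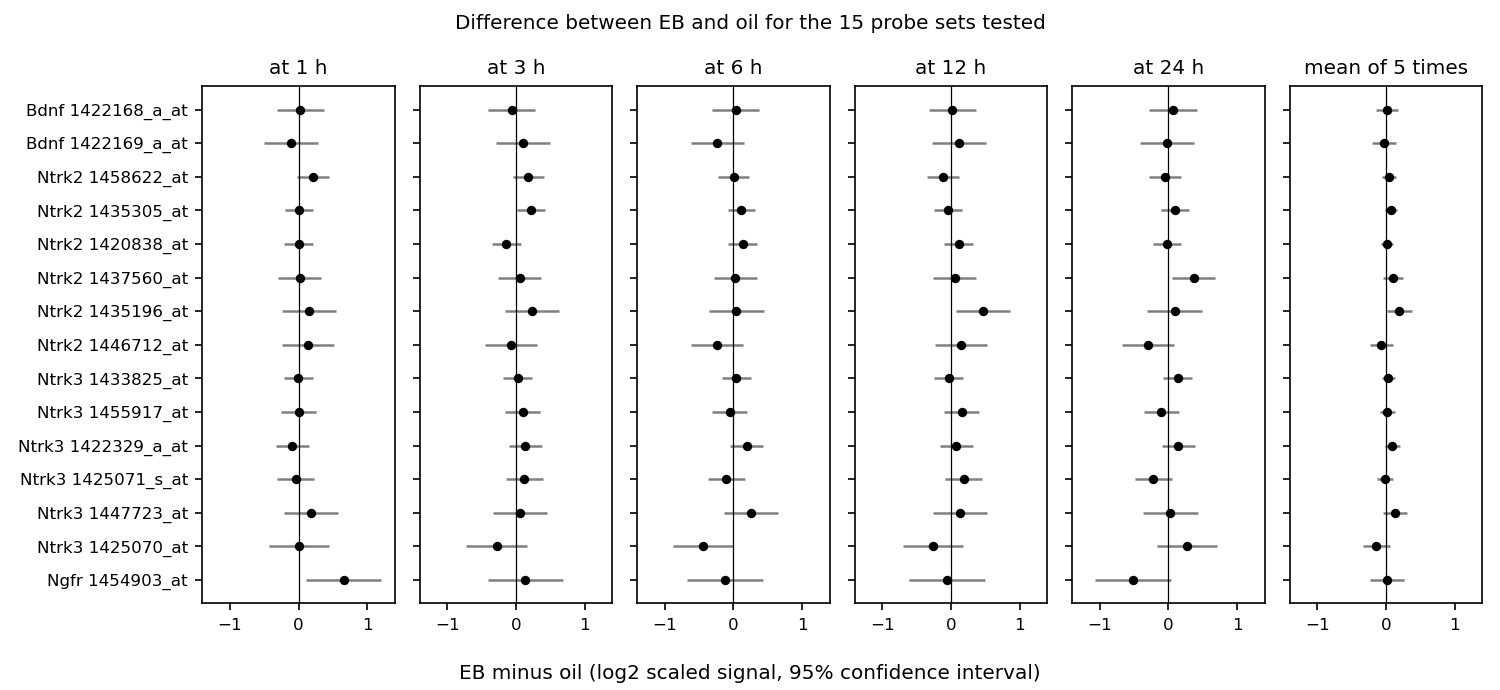
Difference between EB and oil (x axis, log2 scaled signal) for the 15 probe sets tested (y axis) at each of the 5 times and averaged over them. Points are limma estimates and bars 95% confidence intervals, and the widest bars are those of Ngfr, from 0.10 to 1.21 at 1 h and from -1.06 to 0.04 at 24 h.

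Bdnf, the ligand of TrkB, was read by 2 probe sets. On 1422168_a_at, which had the higher mean signal of the pair, the oil arrays read 121, 154 and 203 at 1 h, 154, 156 and 173 at 3 h, 181, 109 and 183 by 6 h, 152, 174 and 206 at 12 h, and 179, 175 and 178 after 24 h. The EB arrays read 161, 176 and 141 at 1 h, 144, 144 and 176 at 3 h, 162, 156 and 153 by 6 h, 175, 179 and 181 at 12 h, and 214, 199 and 151 after 24 h. EB and oil overlapped at every time. The highest group mean, 188 with EB at 24 h, was 1.22 times the lowest, and all 9 neighbouring pairs in the order of the 10 group means overlapped. Averaged over times the difference was 0.02 on the log2 scale, with an interval from -0.14 to 0.17, which is 0.909-fold to 1.13-fold.

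The other Bdnf probe set, 1422169_a_at, gave -0.03 on the log2 scale averaged over times, with an interval from -0.21 to 0.14. Its oil arrays read 85.8, 61.4 and 86.2 at 1 h and 137, 108 and 95.4 at 6 h, and its EB arrays 68.7, 78.9 and 66.9 at 1 h and 90.9, 91.6 and 104 at 6 h. The 6 h arrays lay above the 1 h arrays in both treatments, and neither difference passed the test, at 0.55 in oil (limma adjusted p = 0.051) and 0.42 with EB (limma adjusted p = 0.19). Over the 30 arrays the 2 probe sets of Bdnf correlated at r = 0.25 on the log2 scale, a description of arrays that share group and scaling. Summed markers of recent neuronal activity were higher at 1 h than at 24 h. The summed scaled signal of 10 immediate early genes, 6 of them above the filter, was 1395 to 2501 at 1 h and 782 to 919 at 24 h in oil. With EB it was 2080, 5810 and 1924 at 1 h and 781 to 914 at 24 h. Between EB and oil at 1 h limma called 0 of the 6, where 0.0037% of all probe sets were called. Bdnf at 1 h was 121 to 203 in oil and 141 to 176 with EB, and the part of activity in it was not tested.

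The windows upstream of the annotated starts show which estrogen and activity motifs the letters hold. RefSeq on GRCm38.p6 gave 7 starts for Bdnf, 1 for Ntrk2, 1 for Ngfr and 2 for Ntf3, and the 250 bases before each were searched on both strands. The palindrome of the estrogen response element, GGTCANNNTGACC, was in 0 of these 11 windows and in 0.0639% of the 32851 windows of all genes. Its half-site GGTCA, which is part of the palindrome, was in 3 windows, all of Bdnf, and in 35.2% of all windows. The cAMP response element TGACGTCA was in 0 of the 11 and in 1.55% of all windows. The variant CACGTCA, the form known from the calcium-responsive Bdnf promoter, was in 1 of the 11, at Bdnf start 3, 37 bases before the start, and in 1.65% of all windows. Starts are numbered in the order of the RefSeq table, which does not tie a probe set to a start. The half-site occurred once at Bdnf start 1, once at start 4 and in 2 places at start 6. Start 3 is shown for the CACGTCA variant and start 1 as an example of the half-site, both in capitals, and the Ntrk2 and Ngfr windows because no motif searched was found in them. Ntrk3 had no entry in the table used.
Bdnf start 3, chr2:109692186-109692435, plus strand, with CACGTCA in capitals: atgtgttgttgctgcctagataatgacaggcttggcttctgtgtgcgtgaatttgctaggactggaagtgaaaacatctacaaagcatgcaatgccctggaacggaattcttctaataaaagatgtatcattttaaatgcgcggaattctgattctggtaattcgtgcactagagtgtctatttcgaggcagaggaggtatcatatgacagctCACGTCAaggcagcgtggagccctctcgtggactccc
Bdnf start 1, chr2:109674450-109674699, plus strand, with GGTCA in capitals: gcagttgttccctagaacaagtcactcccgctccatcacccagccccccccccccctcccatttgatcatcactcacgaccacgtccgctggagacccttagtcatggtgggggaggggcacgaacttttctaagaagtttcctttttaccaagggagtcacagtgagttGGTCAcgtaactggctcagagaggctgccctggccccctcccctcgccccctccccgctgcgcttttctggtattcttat
Ntrk2, chr13:58806319-58806568, plus strand: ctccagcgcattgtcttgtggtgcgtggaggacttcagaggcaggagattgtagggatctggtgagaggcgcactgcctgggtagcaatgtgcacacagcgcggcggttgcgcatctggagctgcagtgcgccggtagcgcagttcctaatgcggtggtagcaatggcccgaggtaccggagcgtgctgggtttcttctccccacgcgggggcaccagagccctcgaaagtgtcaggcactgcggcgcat
Ngfr, chr11:95587699-95587948, minus strand: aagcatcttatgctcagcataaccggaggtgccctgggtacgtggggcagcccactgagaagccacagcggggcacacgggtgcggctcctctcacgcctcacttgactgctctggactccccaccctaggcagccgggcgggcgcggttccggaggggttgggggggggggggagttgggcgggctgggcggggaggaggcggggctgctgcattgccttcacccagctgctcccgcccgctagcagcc

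Ntrk2, the receptor of Bdnf, was read by 6 tested probe sets with mean scaled signals from 64.8 to 1304. On the probe set with the highest mean, 1458622_at, the oil arrays read 1282, 1232 and 1222 at 1 h and the EB arrays 1405, 1498 and 1413. The groups did not overlap at 1 h, and the difference was 0.21 on the log2 scale (SE 0.11, limma adjusted p = 0.62). At 3 h the oil arrays read 1070.0, 1106 and 1319 and the EB arrays 1300.2, 1186 and 1476, and at 6 h the oil arrays 1318, 1167 and 1086 and the EB arrays 1009, 1203 and 1389. At 12 h the oil arrays read 1481, 1449 and 1706 and the EB arrays 1569, 1565 and 1164, and at 24 h the oil arrays 1238, 1289 and 1443 and the EB arrays 1222, 1313 and 1292. EB and oil overlapped at these 4 times. Averaged over times the difference was 0.04, with an interval from 0.961-fold to 1.11-fold.

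The other Ntrk2 probe sets gave differences averaged over times from -0.07 to 0.20 on the log2 scale. The end at 0.20 was 1435196_at, with an interval from 0.02 to 0.37, an unadjusted p of 0.031 and an adjusted p of 0.52 from limma. Its oil arrays read 331, 489 and 384 at 12 h and its EB arrays 609, 532 and 510.3, all 3 above the oil arrays. That difference was 0.47 (SE 0.19, limma adjusted p = 0.74). The other 2 unadjusted p values under 0.05 of Ntrk2 were on 1435305_at at 3 h, 0.22 with overlapping groups, and on 1437560_at at 24 h, 0.37 with overlapping groups. These 3 probe sets each stood out at a different time, and over the 30 arrays the 15 pairs of Ntrk2 probe sets correlated at r from -0.20 to 0.42, with a median of 0.13.

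Ntrk3, the receptor of neurotrophin-3, was read by 6 tested probe sets with mean scaled signals from 43.2 to 396. On 1433825_at, which had the highest mean, the oil arrays read 423, 386 and 392 at 1 h, 389, 404 and 356 at 3 h, 389, 417 and 388 by 6 h, 369, 459 and 371 at 12 h, and 403, 363 and 383 after 24 h. The EB arrays read 425, 389 and 383 at 1 h, 389, 387 and 393 at 3 h, 356, 386 and 501 by 6 h, 439, 367 and 363 at 12 h, and 413, 455 and 394 after 24 h. EB and oil overlapped at every time, and so did all 9 neighbouring pairs in the order of the group means. The highest group mean was 1.10 times the lowest, the smallest ratio of the 15 probe sets, and the difference averaged over times was 0.03, with an interval from 0.958-fold to 1.09-fold. The other 5 Ntrk3 probe sets gave averaged differences from -0.14 to 0.13. On 1425070_at the EB arrays at 6 h, at 37.1, 33.2 and 31.2, lay below the oil arrays at 44.4, 46.5 and 47.1, a difference of -0.45 (SE 0.21, limma adjusted p = 0.83).

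Ngfr, the p75 receptor, was the member with the widest spread. Its 1 tested probe set, 1454903_at, was dim, with a mean scaled signal of 46.6 where the dimmest probe set tested had 21.9. At 1 h the oil arrays read 39.9, 40.8 and 35.6 and the EB arrays 48.9, 61.6 and 75.3, all 3 above the oil arrays. At 24 h the oil arrays read 42.7, 41.2 and 64.5 and the EB arrays 33.4, 36.8 and 31.9, all 3 below. Neither difference passed, with 0.66 for the earlier (SE 0.27, limma adjusted p = 0.49) and -0.51 for the later (SE 0.27, limma adjusted p = 0.37). Without oil 24 h replicate 3, the array at 64.5, the later was -0.30 (limma adjusted p = 0.71), and in the deposited signals it was -0.29 (limma adjusted p = 0.57). At 3 h the oil arrays read 40.6, 46.6 and 43.4 and the EB arrays 47.2, 48.9 and 47.2, apart by less than 1 unit. At 6 h the oil arrays read 56.3, 62.1 and 23.8 and the EB arrays 59.3, 32.0 and 33.8, and at 12 h the oil arrays 61.9, 75.0 and 46.5 and the EB arrays 67.8, 47.7 and 59.5, with overlap at both times. Averaged over times the difference was 0.02 on the log2 scale, with an interval from -0.23 to 0.27. The change from 1 h to 24 h was 0.32 in oil and -0.84 with EB, and the difference of the 2 changes was -1.17 (SE 0.38, limma adjusted p = 0.15), where 0.995% of all probe sets were called. The other 2 Ngfr probe sets had mean scaled signals of 1.67 and 3.19 and were not tested.

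**Figure D2:**
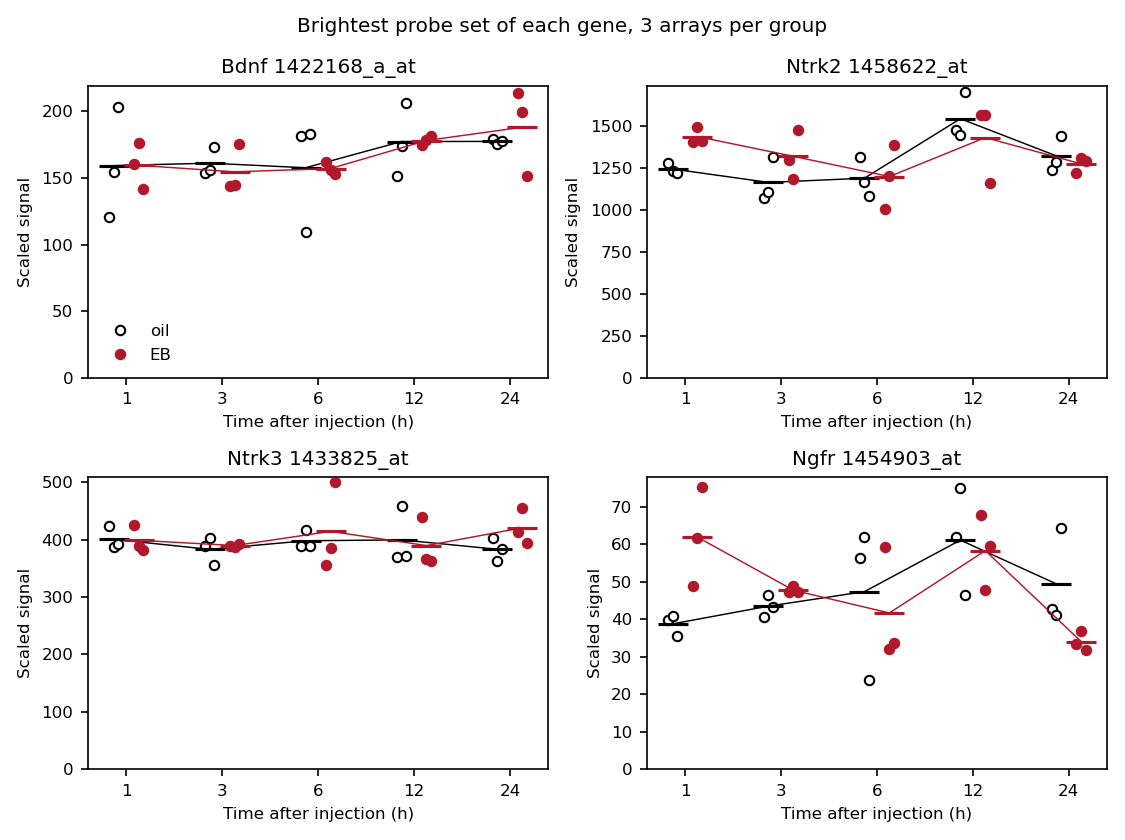
Scaled signal (y axis) of the probe set with the highest mean of each gene, against hours since the injection (x axis). Open circles are oil, filled circles EB, and joined bars the means of 3 arrays. The y axes differ between panels and start at 0. Bdnf, Ntrk2 and Ntrk3 overlap between treatments except Ntrk2 at 1 h, and Ngfr is apart at 1 h, 3 h and 24 h.

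Time after the injection, which the mice's age and the time since handling share, was compared within each treatment. Over the 5 times in oil, 4 of 15 differed by limma's F test, 26.7% against 34.1% of all probe sets, and with EB 2 of 15 did, 13.3% against 22.9%. The calls in oil were Ntrk2 1435196_at and 1458622_at and Ntrk3 1447723_at and 1425071_s_at, and those with EB were Ntrk2 1435196_at and Ntrk3 1447723_at. Without the 12 h arrays 0 of 15 were called in oil and 0 of 15 with EB by limma, and the share of all probe sets then called was not counted. When 1 array was left out at a time, the call in oil was lost in 21 of 30 cases for Ntrk3 1425071_s_at, 15 for Ntrk2 1435196_at, 4 for Ntrk2 1458622_at and 0 for Ntrk3 1447723_at, and neither call with EB was lost. At 12 h against 1 h, 4 of 15 differed in oil, 2 higher and 2 lower, where 30.6% of all probe sets did, 18.7% higher and 11.9% lower. With EB it was 2 of 15, 1 higher and 1 lower, where 16.2% did, 8.74% higher and 7.48% lower. At 3 h against 1 h limma called 0 of 15 in oil and 0 of 15 with EB, where 0% and 0.137% of all probe sets were called, and 1 and 0 had an unadjusted p under 0.05, where 10.6% and 11.3% of all did. At 6 h against 1 h it called 0 of 15 in each, where 15.4% and 6.33% were called, and 4 and 4 had an unadjusted p under 0.05, where 29.4% and 22.1% of all did.

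The probe set 1447723_at of Ntrk3 fell at 12 h in both treatments and was back at 24 h. Its oil arrays read 83.7, 70.9 and 70.5 at 1 h, 42.7, 42.9 and 33.7 at 12 h, and 84.4, 99.8 and 66.0 at 24 h. Its EB arrays read 88.0, 81.7 and 84.7 at 1 h, 38.0, 57.7 and 37.1 at 12 h, and 67.4, 94.6 and 92.3 at 24 h. The 12 h arrays lay below those of 1 h and 24 h without overlap, and the change from 1 h was -0.92 in oil (SE 0.19, limma adjusted p = 0.00067) and -0.97 with EB (SE 0.19, limma adjusted p = 0.0011). Without scaling the call of this fall was lost in both treatments, and in each it held under 7 of 8 alternatives. In the deposited signals, where the median of all probe sets rose by 0.81 from 1 h to 12 h in oil and by 0.72 with EB, the same probe set changed by -0.20 (limma adjusted p = 0.36) and -0.30 (limma adjusted p = 0.18). On the other 5 Ntrk3 probe sets the scaled 12 h change ran from -0.35 to 0.12 in oil and from -0.27 to 0.28 with EB.

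The probe set 1435196_at of Ntrk2 rose from 279, 263 and 246 at 1 h to 331, 489 and 384 at 12 h in oil, by 0.60 on the log2 scale (SE 0.19, limma adjusted p = 0.02). With EB it rose from 344, 213 and 335 to 609, 532 and 510.3, by 0.92 (SE 0.19, limma adjusted p = 0.0018). The 12 h arrays lay above the 1 h arrays in both. In the deposited signals the rises were 1.31 and 1.59, where the median of all probe sets rose by 0.81 and 0.72. With quantile normalization the rise in oil was 0.49 and did not pass (limma adjusted p = 0.061), nor did it without oil 1 h replicate 3 or oil 12 h replicate 2, at 0.55 and 0.45. On 1458622_at the rise at 12 h was 0.31 in oil (SE 0.11, limma adjusted p = 0.037) and -0.02 with EB (limma adjusted p = 0.93). That call was lost without any of 5 of the 6 arrays compared, all but oil 12 h replicate 2, with values from 0.23 to 0.35. The other 4 Ntrk2 probe sets changed by -0.05 to 0.12 in oil and -0.10 to 0.16 with EB.

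The probe set 1425071_s_at of Ntrk3, whose suffix marks probes shared between transcripts, read 140.4, 109.6 and 128 at 1 h and 86.7, 125 and 87.5 at 12 h in oil. The groups overlapped, and the change was -0.35 (SE 0.13, limma adjusted p = 0.045). Its direction turned to 0.37 in the deposited signals (limma adjusted p = 0.064), where the median of all probe sets rose by 0.81. The call was lost without any of 6 single arrays, oil 1 h replicates 1 and 3, oil 12 h replicates 1 and 3, oil 24 h replicate 1 and EB 24 h replicate 2, with values from -0.52 to -0.26 over the arrays left out. Bdnf had no call at 12 h, with 0.18 and 0.17 in oil and 0.17 and 0.38 with EB on its 2 probe sets. By limma 0 of 2 had an unadjusted p under 0.05, where 11167 of 27022 probe sets did in oil and 8044 with EB. Whether 12 h differed from its neighbours through the mice or through the brighter arrays cannot be told apart, because every 12 h array was bright.

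**Figure D3:**
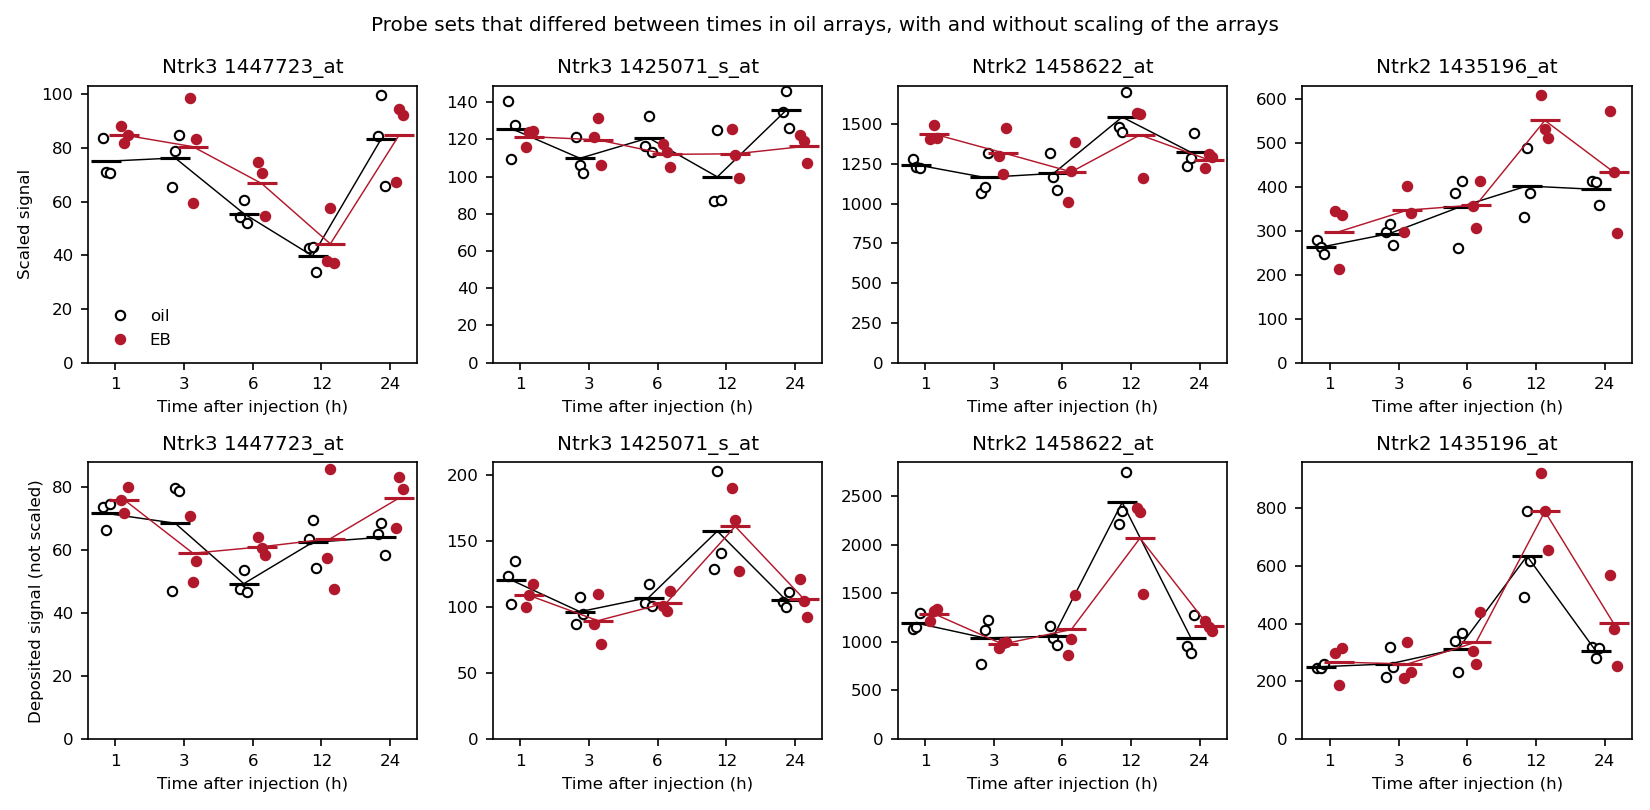
Scaled signal (upper row, y axis) and deposited signal (lower row, y axis) against hours since the injection (x axis) of the 4 probe sets that differed between times in oil. Open circles are oil, filled circles EB, and joined bars the means of 3 arrays. The scaled 12 h change in oil was -0.92 for Ntrk3 1447723_at and 0.60 for Ntrk2 1435196_at. In the deposited signals it was -0.20 and 1.31, where the median of all probe sets rose by 0.81.

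At 24 h against 1 h limma called 0 of 15 in oil, with 6.73% of all probe sets called, and 1 had an unadjusted p under 0.05, where 22.3% of all did. That 1 was Ntrk2 1435196_at, at 0.58 (limma adjusted p = 0.066), with 24 h arrays of 414, 409.5 and 358 above all 3 arrays of 1 h. With EB 1 of 15 was called, Ngfr 1454903_at, where 10.2% of all probe sets were called and 5.51% were called lower. It fell by 0.84 on the log2 scale (SE 0.27, limma adjusted p = 0.043), from 48.9, 61.6 and 75.3 to 33.4, 36.8 and 31.9 without overlap. The call was lost without EB 1 h replicate 2 or 3 and without EB 24 h replicate 1, 2 or 3, with values from -1.0 to -0.69 over the arrays left out.

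Markers of several cell types moved at the same time. Of 22 leptomeningeal fibroblast genes listed, 22 were matched and 20 were above the filter, and the 2 others, Slc22a2 and Asgr1, were below it. From 1 h to 24 h with EB 20 of 20 were lower by limma, with a median of -2.83 on the log2 scale. Against oil at 24 h 18 of 20 were lower, with a median of -2.33, where 2.78% of all probe sets were called. The summed scaled signal of the 22 was 4485 to 6352 with EB at 1 h and 794, 859 and 2427 with EB at 24 h, beside 3434 to 4397 with oil at 24 h. Of 9 mural cell genes, 9 of them above the filter, 6 were lower from 1 h to 24 h with EB, with a median of -0.66. Of 14 astrocyte and radial glia genes 5 were lower and 1 higher, and of 12 pan-neuronal genes 4 were lower. Of 9 microglia and macrophage genes 3 were lower and of 8 endothelial genes 2, where 5.51% of all probe sets were called lower. The summed signals of these 6 lists with EB at 24 h lay below those with EB at 1 h and with oil at 24 h, without overlap. At 1 h the leptomeningeal sum was 3821 to 5149 in oil, and its genes' median difference, EB minus oil, was 0.39. Between the EB groups of 1 h and 24 h Ngfr and the sums of the 6 lists differed in the same direction. So did the immediate early sum, at 1924 to 5810 at 1 h and 781 to 914 at 24 h. The sum of the 2 estrogen-responsive genes went the other way, from 136 to 148 at 1 h to 205 to 256 at 24 h. The Schwann cell and myelin, telencephalon and hypothalamus sums overlapped between these groups. By replicate at 24 h with EB, the leptomeningeal sums were 794, 859 and 2427 and Ngfr 33.4, 36.8 and 31.9. With oil at 24 h they were 4397, 4057 and 3434, and Ngfr 42.7, 41.2 and 64.5. The part of these cell types in Ngfr was not tested. In whole tissue fewer cells of a type and less RNA per cell cannot be told apart. Without EB 24 h replicates 1 and 2, where the leptomeningeal sums were lowest, Ngfr changed by -0.94 from 1 h to 24 h with EB. That value rests on 1 array of EB at 24 h.

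**Figure D4:**
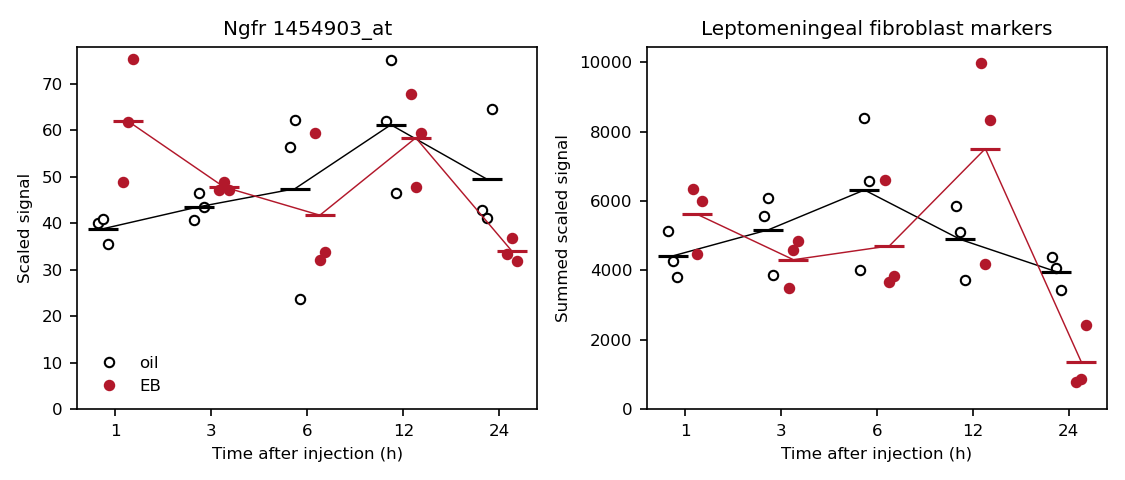
Scaled signal of Ngfr 1454903_at (left, y axis) and summed scaled signal of 22 leptomeningeal fibroblast genes (right, y axis) against hours since the injection (x axis). Open circles are oil, filled circles EB, and joined bars the means of 3 arrays. At 24 h the EB arrays lie below the oil arrays in both, at 31.9 to 36.8 for Ngfr and 794 to 2427 for the sum.

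**Figure D5:**
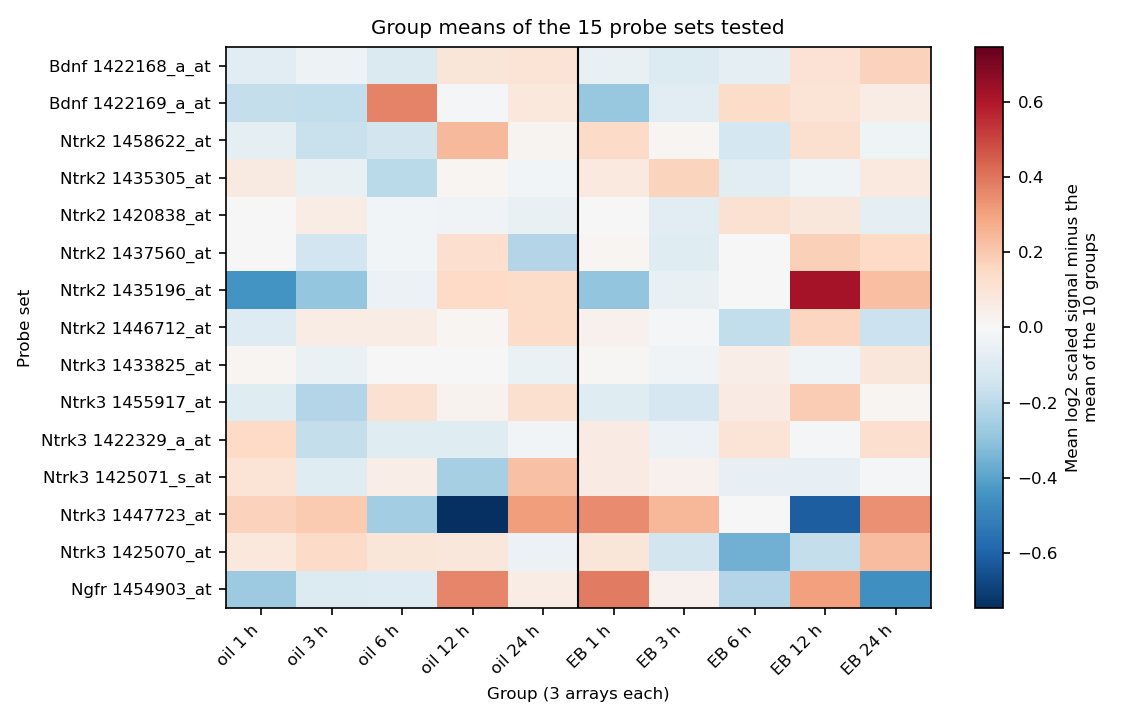
Mean log2 scaled signal of each group minus the mean of the 10 groups (colour) for the 15 probe sets tested (rows) in the 10 groups (columns). The deepest colours are Ntrk3 1447723_at at 12 h in both treatments and Ntrk2 1435196_at at 12 h with EB. Probe sets of 1 gene show different patterns over the groups.

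When the 10 groups were ordered by their means, all 9 neighbouring pairs overlapped in 14 of the 15 probe sets, and in Ntrk2 1435305_at 1 pair did not. Groups next to each other in such an order lie close, and the overlap says nothing of groups farther apart: Ntrk3 1447723_at overlapped in all 9 pairs although its 12 h arrays lay below those of 1 h and 24 h. The ratio of highest to lowest group mean was largest for Ntrk3 1447723_at, at 2.13, and Ntrk2 1435196_at, at 2.10, and was 1.82 for Ngfr and 1.59 or less for the rest. The probe sets of 1 gene did not follow each other closely, as the plot of group means shows, and among the 15 pairs of Ntrk3 r ran from -0.31 to 0.45 with a median of 0.22.

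The genes most like each member over the 30 arrays are given as a description, since the arrays share group, scaling and brightness. Ntrk2 1458622_at was most like Prkcb, a protein kinase C, at r = 0.89, Ddah1, an enzyme that degrades methylated arginines, at 0.88, and Cend1, a neuronal protein of cell cycle exit, at 0.87. Bdnf 1422168_a_at was most like Nrsn1 and Ppm1a, a protein phosphatase, both at 0.71, and Shisal2b at 0.70. Ngfr 1454903_at was most like Phlda1 at 0.67, and Pmepa1, a regulator of TGF-beta signalling, and B2m, the light chain of class I histocompatibility molecules, both at 0.66. Ntrk3 1433825_at had the weakest matches, Adk, adenosine kinase, at 0.60, Ift52, of intraflagellar transport, at 0.59 and Rrm1, of ribonucleotide reductase, at 0.57.

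Among the other genes of neurotrophin processing and signalling few passed the test of EB against oil. Of 75 genes listed, from the enzymes and sorting receptors that handle the precursors to the adaptors, Ras, MAP kinase and PI3 kinase steps, 61 were matched and 58 were tested by their brightest probe set. Ntf5, Shc3 and Plg were matched but below the filter, and the genes not matched were not analysed here. At 24 h 2 of 58 differed by limma, both lower with EB, 3.45% against 3.16% of the 12388 genes tested this way. Cpe, carboxypeptidase E, which trims and sorts peptide and Bdnf precursors, was 8222 to 8687 with oil and 6614 to 6661 with EB, a difference of -0.35 (SE 0.06, limma adjusted p = 0.002). Ngfrap1, which encodes a protein associated with the p75 receptor, was 3323 to 3517 with oil and 2555 to 2889 with EB, a difference of -0.32 (SE 0.08, limma adjusted p = 0.017). The groups did not overlap for either gene, as for 24.2% of all probe sets at 24 h. At that time the summed signals of 6 of the 11 marker lists were also lower with EB without overlap. Gene by gene, limma called lower 18 of 20 leptomeningeal genes, 2 of 14 astrocyte and radial glia genes and 1 of 12 pan-neuronal genes. It called lower 1 of 9 mural cell genes, 2 of 9 microglia and macrophage genes and 0 of 8 endothelial genes. The leptomeningeal sum was 3434 to 4397 with oil and 794 to 2427 with EB, the pan-neuronal 38859 to 41231 and 34143 to 36492, and the astrocyte and radial glia sum 17706 to 18459 and 14228 to 16231. The mural, endothelial and microglia sums were the others, and the part of these cell types in Cpe and Ngfrap1 was not tested. Without EB 24 h replicates 1 and 2 limma called 0 of 58, with 1 EB array left, and the difference was -0.35 for Cpe (limma adjusted p = 0.18) and -0.25 for Ngfrap1 (limma adjusted p = 0.59). Without oil 24 h replicate 1 or 2 or EB 24 h replicate 1 or 2 Ngfrap1 did not pass, with values from -0.34 to -0.27, and Cpe passed without each of the 6 arrays of 24 h. Cpe was also the 1 gene of 58 whose EB effect differed between times (limma adjusted p = 0.039), where 0.92% of all genes were called.

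At 1, 3, 6 and 12 h 0 of the 58 were called by limma, where 0%, 0.161%, 0% and 0% of the 12388 genes were called. At an unadjusted p under 0.05 there were 5, 7, 6 and 5 of 58, where 8.04%, 11.6%, 6.43% and 6.01% of all genes had one. At 24 h there were 14 of 58, and 11 of 58 for an EB effect that differed between times. Of all probe sets 15.7% and 16% had one, and the share over genes was not counted for these tests. Averaged over the times 0 were called by limma, where 0.0323% were called, and 6 had an unadjusted p under 0.05, where 8.91% of all did. The median difference of the 58 was between -0.06 at 24 h and 0.07 at 3 h on the log2 scale, beside -0.03 and 0.06 over all genes.

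Over time 26 of 58 differed in oil, 44.8% against 34.4% of all genes, and 14 of 58 with EB, 24.1% against 22.8%. At 12 h against 1 h 21 of 58 differed in oil, 14 higher and 7 lower, where 29.4% of all genes were called, and with EB 11, 8 higher and 3 lower, where 15.7% were. At 24 h against 1 h 8 of 58 differed in oil, 6 higher and 2 lower, where 7.33% of all genes were called. The fall of Mmp9, a metalloproteinase that can cleave neurotrophin precursors, was -1.11 (SE 0.20, limma adjusted p = 0.0016). Rtn4r, the Nogo receptor, which pairs with p75, rose by 0.74, the Ras protein gene Nras by 0.46, the Ras exchange factor gene Sos1 by 0.43 and the adaptor gene Crk by 0.34. Plat, tissue plasminogen activator, which starts the extracellular cleavage of Bdnf precursor, changed by -0.44. With EB 11 of 58 differed, 6 higher and 5 lower, where 11.6% were called. Sos1 rose by 0.49, Slitrk1, a neuronal membrane protein, by 0.47, while Plat changed by -0.48, the adaptor gene Shc1 by -0.86, the receptor gene Tnfrsf19 by -0.49 and Ngfrap1 by -0.35. In the same contrast 20 of 20 leptomeningeal genes were lower, with a median of -2.83, as were 6 of 9 mural cell genes, and the part of these cells in the falls was not tested.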

How the data were processed

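Hypothalamic RNA of 30 newborn female mice was measured on 30 one-colour Affymetrix arrays. The deposited values are linear MAS5 signal intensities, as the authors made them; the software version is not given in the sources used here, nor is any scaling. All array columns were matched to a sample (0 left out). The file held 45101 probe sets, and 64 controls were removed. Symbols came from the platform's annotation, where 34945 probe sets had 1 symbol, 932 several and 9160 none. No 2 arrays were identical (0 pairs). The members, gene lists and tests were chosen with earlier results of these data known.

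From the deposited intensities, arrays were brought to a common median (the mean of their medians), signals under 1 were set to 1 and log2 was taken. The lowest 40% of probe sets by mean log2 signal were left out. The 10 groups were fitted with limma 3.58.1 (R 4.3.3), eBayes and a trend, with Benjamini-Hochberg adjustment over 27022 probe sets and a threshold of 0.05. Tests are two-sided. Fold changes are on the log2 scaled signal, and MAS5 signals near the floor are noisy. The fit was tested on simulated data.

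Every member probe set is accounted for, with the brightest of each gene in full and others where they passed a test or differed. Listed signalling genes are named where they passed, at most 6 a comparison, and the 3 genes most correlated with each member are given. The alternatives covered scaling, quantile normalization, a pseudocount of 16, the filter, array weights, the replicate number as a block, the arrays fitted, the methods' F test and leaving out each array. Leaving out the 12 h arrays or EB 24 h replicates 1 and 2, and the contrasts of 3, 6 and 12 h with 1 h, were added after seeing the data. RefSeq windows are from GRCm38.p6.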

Additional observations from a re-analysis of the deposited data

How the results depend on the processing

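The 0 of 15 probe sets called between EB and oil at each time, averaged over times and in the interaction stayed 0 under each alternative run and without each array. Calls over time in oil (4 of 15) became 14 without scaling, where 25604 of all 27022 probe sets were called. They became 1 without the filter and 0 without the 12 h arrays, and lay from 1 to 5 with single arrays left out. Calls over time with EB (2) became 14 without scaling, where 24259 of all 27022 probe sets were called. They became 1 with the lowest 60% left out (which removes Ntrk3 1447723_at) and 0 without the 12 h arrays, with a range of 2 to 3. At 24 h against 1 h in oil, 0 became 1 with array weights, with the oil arrays fitted alone and without EB 24 h replicates 1 and 2, with a range of 0 to 1. With EB, 1 became 0 without scaling, without the filter, with the lowest 60% left out (which removes Ngfr) and without EB 24 h replicates 1 and 2, and 2 with array weights, with a range of 0 to 2. Signalling genes called at 24 h (2) became 0 without scaling, with quantile normalization and without EB 24 h replicates 1 and 2 (Cpe then -0.35, Ngfrap1 -0.25), 6 with array weights and 5 with only the 24 h arrays, with a range of 1 to 4. Those called over time in oil (26) became 58 without scaling, beside the same 25604 of 27022 probe sets. They became 15 without the 12 h arrays, with a range of 24 to 29. Ntrk3 1425071_s_at at 12 h against 1 h in oil turned from -0.35 to 0.37 without scaling, where the median of all probe sets was 0.81. For alternatives other than the scaling, the share over all probe sets was not counted. Apart from probe sets removed by the filter, the cause of these changes was not tested. The replicate numbers did not pair the samples: 0 of 15 same-numbered pairs correlated over 0.1 (-0.132 to 0.088), and 6 of 15 arrays correlated best with their own number. With the replicate number as a block, 0 of 15 were called between EB and oil at 24 h, 4 over time in oil and 2 over time with EB, and Ntrk2 1435196_at over time in oil had an F of 3.59 (limma adjusted p = 0.052) instead of 3.68 (0.046). At single times 2 of 75 intervals between EB and oil reached beyond 2-fold, both of the dim Ngfr.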
